A study of Mus musculus with 2 samples.

Results

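Of the 9950 kept cells of a passage 5 culture of mouse brain pericytes (PCs), 995 cells, the top 10%, were set apart by their G2/M score, which is the summed UMIs of *Cenpf*, *Plk1*, *Cdc20*, *Ccnb1*, *Prc1*, *Nusap1*, *Hmmr*, *Cenpe* and *Cenpa* divided by all UMIs of the cell. The values of these 9 genes chose the cells, so every level below that compares the 995 cells with the other 8955 kept cells of the library is a description and carries no test. A UMI is a molecular tag that counts 1 captured mRNA molecule. The study sequenced 2 cultures of primary PCs, cells that wrap brain capillaries, in droplets with a 3′ kit, and deposited 1 library of cells grown to passage 5 (PC5) and another of cells grown to passage 20 (PC20). Both cultures were grown from the minced, papain-digested brains of 6 female wild type C57BL/6N mice aged 6 to 8 weeks, pooled for each isolation. The methods describe an isolation of its own for each culture, so passage and isolation cannot be told apart, and with 1 library per passage no test between passages was possible. The kept cells of both libraries numbered 14699.

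A cell that has copied its DNA passes through G2, condenses its chromosomes, builds a spindle and divides. Cyclin B1 with the kinase Cdk1 starts mitosis, Polo-like kinase 1 and the Aurora kinases drive spindle and chromosome events, and the anaphase-promoting complex with Cdc20 ends it by marking cyclin B1 and securin for destruction. Many genes of this phase are switched on together late in the cycle through a promoter element called the cell cycle genes homology region (CHR), often beside CCAAT boxes, whereas genes of the G1/S boundary are known for sites of the E2F factors.

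Of the 9 genes of the score, *Cenpf* encodes a kinetochore protein that builds up in G2, *Cenpe* a kinetochore motor and *Cenpa* the histone H3 variant of centromeres. *Plk1* encodes Polo-like kinase 1, *Ccnb1* cyclin B1 and *Cdc20* the activator of the anaphase-promoting complex. *Prc1* encodes a bundler of the central spindle, and *Nusap1* and *Hmmr* encode proteins that bind spindle microtubules. On GRCm38 only *Plk1* (chr7:122159439-122169873) and *Prc1* (chr7:80294450-80316259) share a chromosome.

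Promoters are shown because the members were chosen by genes that are known to be expressed together. The sequences were taken from RefSeq on GRCm38.p6, cover 150 bases before and 50 bases from the annotated start, and are written 5′ to 3′ on the gene's strand. Capitals mark the CHR letters TTTGAA or TTCGAA and the letters CCAAT, on either strand. The windows are chr1:189688037-189688236 on the minus strand for *Cenpf*, chr7:122159285-122159484 on the plus strand for *Plk1*, chr4:118437294-118437493 on the minus strand for *Cdc20*, chr7:80294301-80294500 on the plus strand for *Prc1* and chr13:100786437-100786636 on the minus strand for *Ccnb1*.
Cenpf: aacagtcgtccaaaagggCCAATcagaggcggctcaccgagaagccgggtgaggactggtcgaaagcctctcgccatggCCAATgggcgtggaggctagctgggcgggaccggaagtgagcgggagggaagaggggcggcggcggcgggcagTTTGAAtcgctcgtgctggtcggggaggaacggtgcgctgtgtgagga
Plk1: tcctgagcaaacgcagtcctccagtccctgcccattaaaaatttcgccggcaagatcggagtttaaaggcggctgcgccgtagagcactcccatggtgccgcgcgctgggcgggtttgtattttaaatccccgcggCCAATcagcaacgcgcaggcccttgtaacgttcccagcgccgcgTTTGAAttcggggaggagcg
Cdc20: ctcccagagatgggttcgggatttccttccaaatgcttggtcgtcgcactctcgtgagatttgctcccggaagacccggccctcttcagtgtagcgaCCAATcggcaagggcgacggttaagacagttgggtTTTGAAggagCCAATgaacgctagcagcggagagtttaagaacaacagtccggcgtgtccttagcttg
Prc1: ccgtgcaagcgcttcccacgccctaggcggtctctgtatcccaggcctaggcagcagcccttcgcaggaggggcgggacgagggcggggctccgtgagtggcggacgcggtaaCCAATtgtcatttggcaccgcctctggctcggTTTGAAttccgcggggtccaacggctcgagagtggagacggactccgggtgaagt
Ccnb1: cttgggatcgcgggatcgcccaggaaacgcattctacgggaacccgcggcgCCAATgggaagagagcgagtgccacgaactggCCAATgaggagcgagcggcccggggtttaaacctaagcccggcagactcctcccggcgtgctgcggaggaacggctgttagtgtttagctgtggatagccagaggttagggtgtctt

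In these windows *Cenpf*, *Plk1*, *Cdc20* and *Prc1* each held 1 CHR match and at least 1 CCAAT match, and *Ccnb1* held 2 CCAAT matches and no CHR match. Over the full table windows, which reach 250 bases before the start, a CHR match was found for 6 of the 9 genes of the score and a CCAAT match for 8. Of the genes tested below, 16.2% of those with a promoter in the table held a CHR match and 43.4% a CCAAT match. These matches are descriptions of letters and say nothing of which factor binds.

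The 995 members had scores from 1105.67 to 5048 UMIs of the 9 genes per 1000000 UMIs of the cell, with a median of 1566. The other cells had a median of 85.3, and 2686 of them held no UMI of any of the 9 genes. The threshold fell on a continuous slope rather than in a gap, as the plot of all scores shows: the last cell inside had a score of 1105.67 and the first outside 1105.32. The 50 cells just inside held a median of 31 UMIs of the 9 genes and the 50 just outside a median of 27. *Top2a*, which is not in the score, stood at 269 counts per 1000000 UMIs (CPM) in the former and 268 CPM in the latter, and *Mki67*, also not in the score, at 73.2 and 92.3 CPM.

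**Figure D1:**
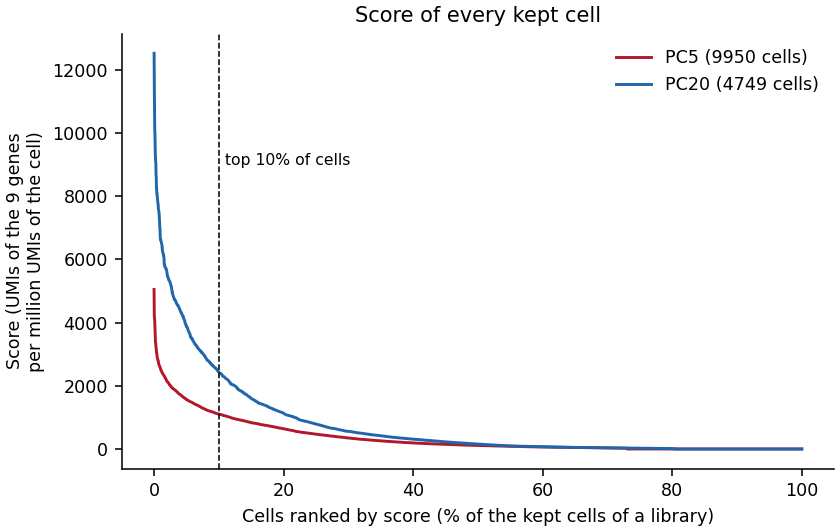
Score of every kept cell (UMIs of the 9 genes per 1000000 UMIs of the cell) against its rank within its library in percent, for PC5 (red) and PC20 (blue), with a dashed line at the top 10%. The curves fall without a gap at the line, where PC5 stood at 1105.67 and PC20 at 2442.

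The members were rich in UMIs of the 9 genes. They held a median of 45 such UMIs per cell, against 2 in the other cells. At least 6 of the 9 genes were seen in 913 members (91.8%) and in 1163 of the other cells (13.0%), and all 9 in 399 members (40.1%). The other end of the range was thin, since 53 members held fewer than 10 UMIs of the 9 genes and were chosen partly for their low totals. Without these 53 cells 249 genes were at least 2-fold higher in place of the 248 reported below.

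Members also held more RNA. They had a median of 28143 UMIs and 5295 genes per cell, against 21142 UMIs and 4387 genes in the other cells. Thinned to 9500 UMIs per cell, with 94 members and 836 other cells too shallow to enter, the medians were 2986 and 2787 genes. Of the 5% of kept cells with the most UMIs, 151 were members, which is 15.2% of the members against 3.87% of the other cells. Droplets that caught 2 cells would lie among such cells. No doublet caller was run, and without these deepest cells 255 genes were at least 2-fold higher. The share of mitochondrial UMIs was close in both, with medians of 2.44% in members and 2.63% in other cells. A barcode of 1 member also occurred among the kept PC20 cells, where it was not in the top 10%, out of 20 barcodes that the libraries share.

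The cells were also described with markers that the score did not use. A UMI of *Mki67* or *Top2a*, which mark cycling cells, was found in 957 members (96.2%) and in 3518 of the other cells (39.3%). Thinned to 9500 UMIs, *Mki67* had a UMI in 59.8% of members and 10.4% of other cells, and *Top2a* in 86.3% and 23.1%. *Pdgfrb*, a receptor gene used as a PC marker, stood at 38.4 CPM in members and 45.4 CPM in other cells. The capillary PC markers *Abcc9* and *Kcnj8* were at 0 UMIs in the members, which allows up to 0.109 CPM, and *Rgs5* stood at 0.835 CPM, so of 8 PC markers only *Pdgfrb*, *Cspg4* and *Notch3* passed the minimum of 5 CPM over all kept cells. Of these 3, *Cspg4* was higher in the members, with a log2 ratio of CPM in members over other cells of 0.57. *Notch3* was lower, at -0.36. Of 15 markers of other lineages, 5 were at 0 UMIs in the members (*Cldn5*, *Cd48*, *Adgre1*, *Mobp* and *Mag*), and the summed level of the list was 307 CPM in members and 247 CPM in other cells. Most of it came from *Slc4a4*, a bicarbonate transporter used as an astrocyte marker (196 and 136 CPM), and from *Pdgfra*, a fibroblast marker, which stood at 88.1 and 88.7 CPM. Another astrocyte marker, *Aldh1l1*, stood at 4.94 and 7.69 CPM. Of the other fibroblast markers *Dcn* was lower in the members (22.7 and 55.3 CPM), *Col3a1* stood at 1061 and 1172 CPM and *Lum* at 2.03 and 3.79 CPM. The microglial and leukocyte genes *Csf1r* and *Ptprc* stood at 0.508 and 0.0363 CPM in the members. Endothelial markers other than *Cldn5* were seen. *Kdr* stood at 15.5 CPM in the 497 members with the highest scores and 16.3 CPM in the other 498. *Pecam1* stood at 0.654 CPM in both parts. Of the 4 other-lineage genes compared, 2 (*Slc4a4* and *Kdr*) had a ratio above 0 and 2 (*Pdgfra* and *Aldh1l1*) below. The part of other lineages in the results was not tested.

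The levels of the 9 genes in the members describe how the cells were chosen. *Cenpf* was the most abundant, at 405 CPM in the members (exact Poisson 95% interval 398 to 413) and 54.7 CPM in the other cells, and gave 23.2% of the UMIs of the 9 genes. *Cdc20* was the scarcest at 39.2 CPM (36.9 to 41.6) against 5.94 CPM, and gave 2.24%. A few genes of high level therefore set most of the score. All intervals here cover counting error within a library only and not the spread between cultures.

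Between these lay the kinetochore, spindle and cyclin genes. *Cenpa* stood at 286 CPM in members and 53.9 CPM in other cells, and *Prc1* at 285 and 31.9 CPM. *Ccnb1* stood at 210 and 22.2 CPM, *Cenpe* at 163 and 18.1 CPM and *Hmmr* at 137 and 18.0 CPM. *Nusap1* had the widest gap, at 127 CPM against 11.7 CPM, and *Plk1* stood at 94.1 CPM against 11.8 CPM. The gap, given as the log2 ratio of CPM in members over CPM in other cells, thus ran from 2.41 for *Cenpa* to 3.45 for *Nusap1*.

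**Figure D2:**
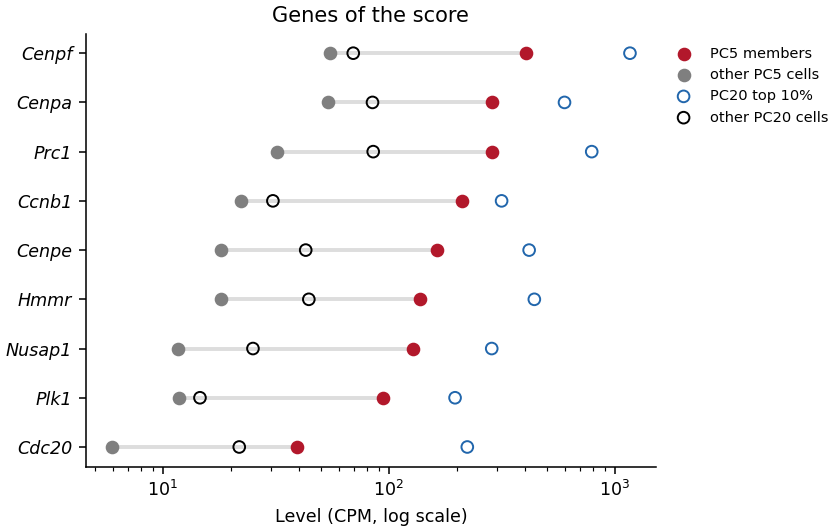
Level of the 9 score genes in CPM (log axis) in the PC5 members (red), the other PC5 cells (grey), the top 10% of PC20 cells by the same rule (open blue) and the other PC20 cells (open black). Each gene sits higher in the chosen cells because it helped to choose them, with *Cenpf* highest at 405 CPM and *Cdc20* lowest at 39.2 CPM in the PC5 members.

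Single members differed widely. The interquartile range over members ran for *Cenpf* from 227 to 494 UMIs per 1000000 UMIs of the cell, for *Ccnb1* from 110 to 290 and for *Cdc20* from 0 to 62.7. *Cdc20* had a UMI in 58.4% of members and 10.5% of other cells, against 95.7% and 41.3% for *Cenpf*. After thinning to 9500 UMIs the shares were 31.1% and 4.77% for *Cdc20* and 94.7% and 28.6% for *Cenpf*. No cell type in the library is known to lack these genes, so no background share from free RNA could be given. When each gene was left out and the cells chosen by the other 8, between 903 (without *Cenpf*) and 970 (without *Cdc20*) of the 995 members stayed. The left-out gene then had log2 ratios from 2.20 for *Cenpa* to 3.24 for *Nusap1*, with 3.05 for *Ccnb1* and 2.58 for *Cdc20*.

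Across the library, 9163 genes with at least 5 CPM over all kept cells were compared, and a gene was called higher or lower where its CPM in the members was at least 2-fold above or below that in the other cells. Of these genes 248 (2.71%) were higher, the 9 score genes among them, and 47 (0.513%) were lower. The median gene had a log2 ratio of 0.10, beside a share of ribosomal protein UMIs of 30.3% in members and 33.6% in other cells, so ratios near 0.10 are those of a typical gene. With every ratio lowered by that median, 207 genes were higher and 72 lower. Of the 248 higher genes 112 were on one of the lists below and 136 were on none.

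The genes of the G2/M lists outside the score were high in the members as a body. Of 90 such genes 85 passed the minimum level, and since a gene can pass through its level in the members alone, the counts below are those of the genes compared. Of the 85, 73 were at least 2-fold higher and 0 lower, against 2.71% and 0.513% of all genes compared. All 85 had a log2 ratio above 0, as had 5955 of all 9163 genes, with a median of 2.28 against 0.10 over all genes. The plot of ratios by list shows that all of these lists but the anaphase-promoting complex had medians above 2.

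Of the genes of mitotic entry, 11 of 11 were at least 2-fold higher, with a median of 2.25. *Cdc25b*, a phosphatase that activates Cdk1, stood at 50.5 CPM in members and 5.76 CPM in other cells, a log2 ratio of 3.13 (95% interval 3.02 to 3.25). *Ccna2*, cyclin A2, stood at 102 CPM against 16.4 CPM (2.63), and *Cdk1* itself at 91.6 CPM against 16.8 CPM (2.45). *Foxm1*, a transcription factor of G2/M genes, had a ratio of 2.08. The smallest gap was that of *Wee1*, which encodes a kinase that holds Cdk1 inactive, at 1.04 (0.96 to 1.12), so among the genes compared an activator of Cdk1 had the widest gap and an inhibitor the narrowest. *Ccnb2*, the second B-type cyclin, stood at 111 CPM against 29.9 CPM, a ratio of 1.89 that was smaller than that of the score gene *Ccnb1*.

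Of the spindle and motor genes, 18 of 19 were at least 2-fold higher, with a median of 2.41. *Aurka*, the Aurora kinase of spindle poles, had a ratio of 3.07 (81.1 CPM against 9.66 CPM), and *Tpx2*, which activates and anchors it, 2.52 at a much higher level (201 CPM against 35.1 CPM). The kinesins on the list ranged from 2.07 for *Kifc1*, a minus-end motor, to 3.05 for *Kif20b*, and *Kif11*, which pushes the poles apart, was at 2.98. *Numa1*, which focuses the poles in mitosis and lies in the nucleus between divisions, was the only one below 2-fold, at 0.66 (46.0 CPM against 29.1 CPM).

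Of the kinetochore and checkpoint genes, 21 of 22 were at least 2-fold higher, with a median of 2.17. *Sgo2a* and *Sgo1*, which encode shugoshins that guard cohesion at centromeres, had ratios of 2.95 and 2.42, and the checkpoint kinase genes *Bub1* and *Ttk* 2.39 and 2.53. The genes compared of the inner kinetochore, which stays on centromeres throughout the cycle, had ratios from 0.57 for *Cenpt*, the one below 2-fold, to 2.00 for *Cenpn*, with *Cenpk* at 1.00, *Cenpm* at 1.21, *Cenpw* at 1.34, *Cenph* at 1.56 and *Cenpq* at 1.77. The 4 genes of the chromosomal passenger complex, which corrects faulty attachments, were all higher and close together, from 2.24 for *Incenp* to 2.58 for *Aurkb*, with *Birc5* (survivin) the most abundant at 219 CPM against 45.1 CPM.

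The anaphase-promoting complex, the ubiquitin ligase that ends mitosis, was split. Of 11 genes 4 were at least 2-fold higher, against 2.71% of all genes compared. All 11 had a ratio above 0, with a median of 0.64 against 0.10 over all genes. These were its ubiquitin-conjugating enzymes *Ube2c* (376 CPM against 62.8 CPM, 2.58) and *Ube2s* (1.22), its inhibitor *Fbxo5* (1.43) and its activator *Fzr1* (1.34). The 6 core subunits compared stayed between 0.18 for *Cdc16* and 0.75 for *Cdc23*. *Pttg1*, securin, stood at 17.9 CPM against 13.1 CPM, a ratio of 0.45 (0.31 to 0.59).

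Of the cytokinesis genes outside the score, 7 of 8 were at least 2-fold higher. *Ect2*, which activates RhoA at the cell equator, had the highest ratio among genes outside the score with at least 20 CPM over all kept cells, at 2.81 (84.9 CPM against 12.1 CPM). *Kif23* and *Racgap1*, which form the centralspindlin complex that binds it, were at 2.95 and 2.41. *Rhoa* itself stood at 431 CPM against 425 CPM, a ratio of 0.02 (-0.01 to 0.05). Of the condensation genes 8 of 10 were higher. The condensin I subunit genes *Ncapg*, *Ncapd2* and *Ncaph* were at 2.41, 2.23 and 2.20, and the condensin II subunit genes *Ncapg2*, *Ncapd3* and *Ncaph2* at 1.44, 0.74 and 0.54, while *Smc2* and *Smc4*, shared by both complexes, were at 2.05 and 2.09. The 3 ratios of condensin II thus all lay below those of condensin I, and 2 of them below 2-fold.

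**Figure D3:**
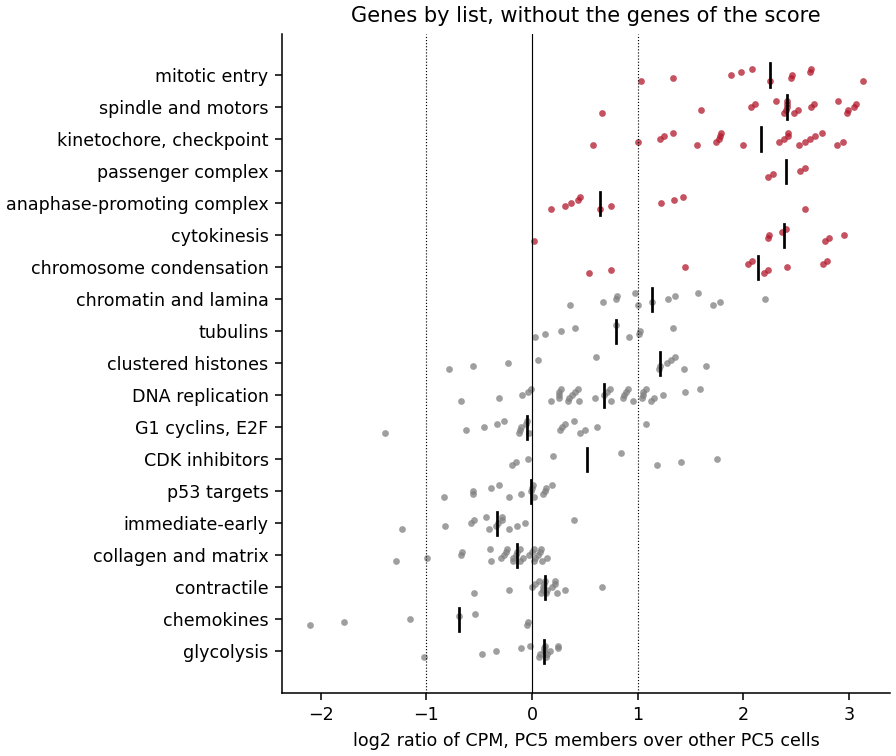
Log2 ratio of CPM, PC5 members over other PC5 cells, for each gene with at least 5 CPM (points) by list, without the 9 score genes; black bars are medians, and dotted lines mark 2-fold. Red lists are those of G2/M, whose medians lie between 0.64 (anaphase-promoting complex) and 2.41, whereas DNA replication lies at 0.68 and chemokines at -0.70.

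Chromatin and structural genes followed at smaller ratios. Of 13 chromatin and lamina genes 8 were at least 2-fold higher, with a median of 1.14. *Hmgb2*, a DNA-bending protein of cycling cells, was at 2.21 (339 CPM against 73.3 CPM), whereas *Hmgb1* was at 0.81, *Lmnb1* (lamin B1) was at 1.78 and *Lmna* (lamin A/C) at 0.36. Each pair thus held a member with a wide and a member with a narrow gap. Of 9 tubulin genes, with *Stmn1* counted among them, 3 were higher, against 2.71% of all genes compared. These were *Stmn1*, which destabilises microtubules (1.33), *Tuba1c* (1.02) and *Tubb6* (1.01). The abundant *Tubb5* stood at 1469 CPM against 1107 CPM, a ratio of 0.41. Tubulin genes are near-identical in parts of their sequence, so their counts are less certain.

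Outside the lists, the genes with the highest ratios among those with at least 20 CPM were *Pimreg* (2.51), *Gas2l3*, a linker of actin and microtubules (2.40), *Pbk*, a mitotic kinase (2.38), *Knstrn*, a spindle protein (2.23), and *Dbf4*, which activates the replication kinase Cdc7 (2.12). The widest gaps of genes with at least 20 CPM outside the score after *Ect2* were those of *Mki67* (114 CPM against 16.5 CPM, 2.79) and *Top2a* (378 CPM against 55.9 CPM, 2.76). Cells with an *Mki67* or *Top2a* UMI were also among the other cells. Against the 5437 other cells with no *Mki67* or *Top2a* UMI, which were also chosen on measured values, *Ect2* was at 3.13 CPM, a ratio of 4.76, *Ccna2* at 3.34 CPM (4.93) and *Nusap1* at 1.48 CPM (6.42). The number of higher genes then was 393 in place of 248.

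DNA replication genes lay above the typical gene, with a smaller median than all G2/M lists but the anaphase-promoting complex. Of 47 listed genes 35 passed the minimum, and 9 of these were at least 2-fold higher, against 2.71% of all genes compared, 0 were lower, and 30 had a ratio above 0, with a median of 0.68 against 0.10 over all genes. Against the other cells with no *Mki67* or *Top2a* UMI, 26 were at least 2-fold higher and the median was 1.39, so the size of this gap depended on which cells the members were set against. The higher ones were enzymes of nucleotide synthesis and replication factors: *Tk1*, thymidine kinase (31.6 CPM against 10.5 CPM, 1.59), *Rrm1* and *Rrm2*, ribonucleotide reductase (1.45 and 1.08), *Tyms*, thymidylate synthase (1.24), and *Rfc5*, *Pole*, *Pola1*, *Rfc4* and *Usp1*, between 1.04 and 1.16. The genes that license origins in G1 lay lower. The *Mcm2* to *Mcm7* helicase genes were between -0.04 for *Mcm2* and 0.35 for *Mcm7*, and *Cdc6*, which loads the helicase, stood at 3.38 CPM against 5.38 CPM, a ratio of -0.67 (-0.99 to -0.36).

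The E and D cyclins named here had ratios below 0, and only *Ccne2* among them passed 2-fold. *Ccne2*, cyclin E2 of the G1/S boundary, was one of the 47 lower genes, at 3.99 CPM in members against 10.5 CPM in other cells, a log2 ratio of -1.39 (-1.69 to -1.12). *Ccne1* was at -0.63 and *E2f1* at -0.45, while the abundant D cyclins *Ccnd1* (1835 CPM against 2003 CPM) and *Ccnd2* (974 CPM against 1229 CPM) were at -0.13 and -0.33. Of 19 genes of G1 cyclins and E2F factors 1 was higher (*Rbl1*, 1.08) and 1 lower. Over all genes compared 2.71% were higher and 0.513% lower. Of 8 CDK inhibitor genes 3 were higher: *Cdkn3*, a phosphatase of Cdk1 and Cdk2 (45.1 CPM against 13.4 CPM, 1.75), *Cdkn2d* (1.41) and *Cdkn2c* (1.19). Of the 8, 5 had a ratio above 0 and 3 below, with a median of 0.52. Among those below 0, *Cdkn1a* (p21) and *Cdkn2a* stood at 359 CPM against 399 CPM and at 494 CPM against 565 CPM, ratios of -0.15 and -0.19.

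To place these genes along the score, the other cells were split into the 2686 with a score of 0 and 6 groups of rising score, 1294 cells in the lowest and 995 in each of the other 5, with the members as group 7. The groups differ in depth, with median UMIs per cell of 17421 at score 0, between 21449 and 24252.5 in groups 1 to 6 and 28143 in the members, and the part of depth was not tested. *Ccne2* stood at 2.39 CPM at score 0, was higher in each next group up to 23.7 CPM in group 5, and stood at 12.7 CPM in group 6 and 3.99 CPM in the members. It was therefore high in cells with some G2/M UMIs and low at both ends of the score.

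*Cdc6* peaked in group 4 (8.85 CPM), and *Ccne1* (35.1 CPM), *Hells*, a chromatin remodeller of S phase (46.7 CPM), *Slbp*, which binds histone mRNA (52.7 CPM), and *Pcna*, the sliding clamp of DNA polymerases (23.5 CPM), peaked in group 5. *Rrm2* peaked in group 6 at 91.5 CPM, and *Tk1* stood at 31.2 CPM in group 6 and 31.6 CPM in the members. Of the 35 replication genes 1 was highest in group 4, 13 in group 5, 9 in group 6 and 12 in the members. The mitotic genes had another shape. *Cdk1* stood at 6.23 CPM at score 0, 47.1 CPM in group 6 and 91.6 CPM in the members, and *Mki67* at 1.16, 72.1 and 114 CPM. All 11 genes of mitotic entry and all 19 spindle genes were highest in the members. The groups are ranges of the score and not phases called in single cells.

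**Figure D4:**
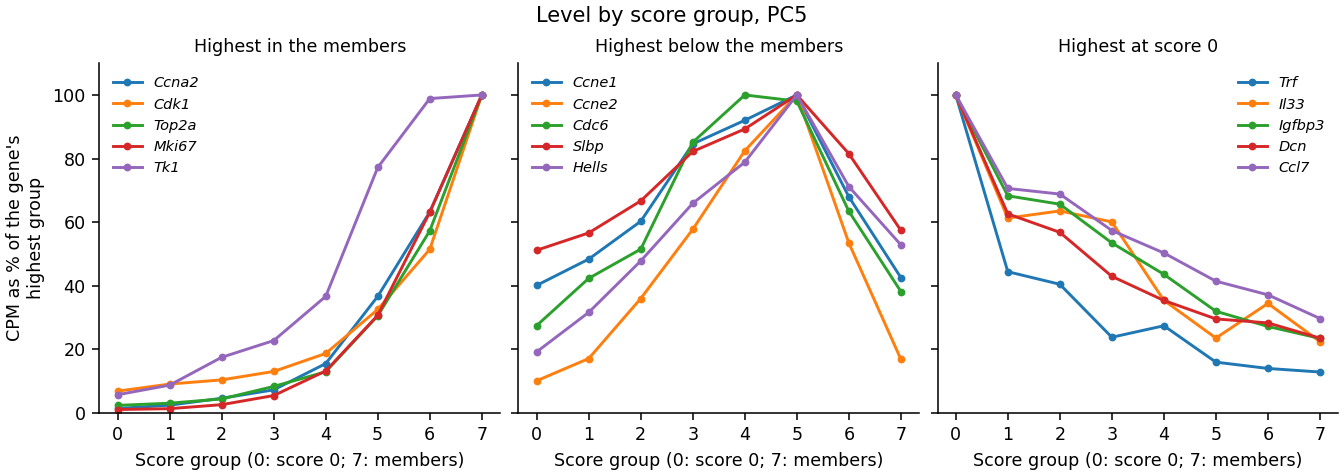
Level of 15 genes across the PC5 score groups (0: score 0; 1 to 6: rising score; 7: the members), each in percent of its own highest group. Genes of the left panel were highest in the members, those of the middle panel in groups 4 or 5 (*Ccne2* at 23.7 CPM in group 5 and 3.99 CPM in group 7) and those of the right panel at score 0.

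The promoter letters differed between these sets. Promoters were given for 75 G2/M list genes, of which 52 (69.3%) held a CHR match, against 16.2% of the tested genes and 21.7% of all genes of the table. Of 36 replication genes 6 (16.7%) held one, and 15 (41.7%) held an E2F match (TTTCGCGC, TTTGGCGC, TTTGCCGC or TTTCCCGC, either strand), against 9 of the 75 G2/M genes (12%), 10.7% of the higher genes outside the score and 4.90% of the tested genes. CCAAT matches were found in 65.3% of the G2/M and 61.1% of the replication genes, so that these letters did not separate the sets. Among all higher genes outside the score 105 of 187 (56.1%) held a CHR match, and 5 of 31 lower genes (16.1%). The promoter of *Cdc6* (chr11:98908001-98908200, plus strand) is shown with the E2F match in capitals, the reverse complement of TTTCCCGC, for comparison with the G2/M promoters above.
Cdc6: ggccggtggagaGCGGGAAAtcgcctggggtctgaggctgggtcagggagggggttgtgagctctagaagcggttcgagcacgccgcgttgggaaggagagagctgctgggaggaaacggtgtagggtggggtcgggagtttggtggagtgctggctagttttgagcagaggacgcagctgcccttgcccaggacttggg

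Within the members the same order appeared. The 497 members with the highest scores and the other 498 differed little in depth, with medians of 28954 and 27505.5 UMIs. In the upper part 80 of the 85 G2/M list genes were above their level in the lower part, with a median log2 ratio of 0.37 against 6170 of all 9163 genes and a median of 0.07, and 28 of the 35 replication genes were below it, with a median of -0.18. *Kpna2*, which carries spindle factors into the nucleus, stood at 48.1 CPM in the upper and 26.2 CPM in the lower part (0.88). *Ccne2* stood at 2.54 CPM and 5.45 CPM (-1.10, 95% interval -1.72 to -0.50), *Mcm2* at 12.5 and 18.8 CPM (-0.59) and *E2f1* at 16.0 and 24.1 CPM (-0.59). The parts were cut on the score, so these values too are descriptions.

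The 15 genes with the lowest ratios among those with at least 20 CPM over all kept cells included several that encode secreted proteins. The widest gap was that of *Trf*, which encodes the iron carrier transferrin, at 11.0 CPM in members against 39.5 CPM in other cells, a log2 ratio of -1.84 (-2.01 to -1.67). *Il33*, a cytokine, stood at 14.3 CPM against 38.3 CPM (-1.42), *Mmp3*, a matrix protease, at 13.3 CPM against 35.2 CPM (-1.40), and *Igfbp3*, a carrier of insulin-like growth factors, at 79.9 CPM against 210 CPM (-1.40). These genes were seen in fewer members also at equal depth. After thinning, *Igfbp3* had a UMI in 33.3% of members and 49.8% of other cells and *Trf* in 8.55% and 15.9%, against 51.1% and 63.0% and 18.4% and 26.1% before thinning.

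Further genes of this end were *Angpt2*, a ligand of the Tie2 receptor (-1.36), *Slc7a2*, an arginine transporter (-1.33), *Aldh1a2*, which makes retinoic acid (-1.30), *Dcn*, the proteoglycan decorin (-1.29), *Igdcc4* (-1.26), *Selenop*, a selenium carrier (-1.24), *Chst15* (-1.18), *Lgi2* (-1.16) and *Tgfbi*, a matrix protein (-1.15). *Selenop* was the most abundant of them, at 125 CPM against 296 CPM. Along the score these genes were highest at score 0: *Igfbp3* stood at 341 CPM there, 149 CPM in group 4 and 79.9 CPM in the members, and *Dcn* at 96.5, 34.1 and 22.7 CPM. Score 0 was also the group with the fewest UMIs per cell.

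Of 7 chemokine genes compared 3 were at least 2-fold lower, against 0.513% of all genes compared. All 7 had a ratio below 0, whereas 5955 of all 9163 genes had one above 0, and the median was -0.70 against 0.10 over all genes. *Ccl7*, which attracts monocytes, stood at 77.0 CPM against 171 CPM (-1.15, 95% interval -1.22 to -1.09), and *Ccl2* at 196 CPM against 317 CPM (-0.70). *Ccl8* and *Ccl11*, at -1.78 and -2.10, rested on 4.14 and 1.63 CPM in the members. Of 14 immediate-early genes, which respond to stimuli within minutes, 1 was lower and 13 had a ratio below 0, with a median of -0.33. *Fos* stood at 25.5 CPM against 59.6 CPM (-1.23), *Dusp1* at 48.7 CPM against 86.0 CPM (-0.82) and *Jun* at 108 CPM against 113 CPM (-0.07). The list thus leaned to lower levels in the members while a single gene passed 2-fold.

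Matrix and contractile genes, which make up much of what PCs are known for, mostly lay within 2-fold of the other cells. Of 27 collagen and matrix genes 1 was lower, *Dcn*, and 0 were higher. Of the 27, 19 had a ratio below 0 and 8 above, whereas 5955 of all 9163 genes had one above 0. Their median was -0.14, against 0.10 over all genes. Over all genes compared 0.513% were lower and 2.71% higher. *Col1a2* stood at 1799 CPM against 1728 CPM and *Col3a1* at 1061 CPM against 1172 CPM, while *Thbs2* (50.4 CPM against 101 CPM) lay just inside 2-fold and was not counted. Of 18 contractile genes 0 passed 2-fold in either direction, and the median of 0.12 was close to that of all genes. Of the 18, 16 had a ratio above 0, and the ratios ran from -0.55 for *Myl9* to 0.66 for *Tagln2*. Along the score 13 of the 18 were highest in the members. *Acta2*, smooth muscle actin, stood at 62.9 CPM against 62.8 CPM.

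The same rule was applied to PC20, a library from which no member was taken. Its top 10% held 474 of 4749 kept cells, with scores of 2442 or more and a median of 3892, so the cells chosen there carried more of the 9 genes than the PC5 members. PC20 cells were also deeper, at a median of 33424 UMIs per kept cell against 21700 in PC5. Of 9010 genes compared 295 (3.27%) were at least 2-fold higher in the top 10% and 44 (0.488%) lower. Among the 8234 genes compared in both libraries 176 were higher in both, which is 72.1% of the 244 higher in PC5 and 71.3% of the 247 higher in PC20, and 0 were higher in one and lower in the other. The score chose the cells in both, so the overlap describes genes that go with the score in each library.

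In PC20 73 of 90 G2/M list genes were at least 2-fold higher, with a median of 2.23, against 73 of 85 and 2.28 in PC5. The median of the spindle list was 2.70 in PC20 and 2.41 in PC5, that of the kinetochore list 1.94 and 2.17, and that of the condensation list 1.81 and 2.14. *Ect2* stood at 252 CPM against 41.6 CPM (2.60) and *Cdk1* at 337 CPM against 64.4 CPM (2.39). *Cenpf* had a ratio of 4.07, against 2.89 in PC5. DNA replication genes differed more, with 2 of 43 higher, 3 lower and a median of -0.05, against 9 of 35 higher and 0.68 in PC5. Among all genes compared, 3.27% were higher and 0.488% lower in PC20, and 2.71% were higher in PC5. *Tk1* was at 0.51 in PC20 and 1.59 in PC5, *Tyms* at 0.10 and 1.24, and *Mcm6* at -1.07 and 0.18. The members stand against the other cells of their own library, of which 69.2% in PC20 and 39.3% in PC5 held an *Mki67* or *Top2a* UMI, and the part of this share was not tested.

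**Figure D5:**
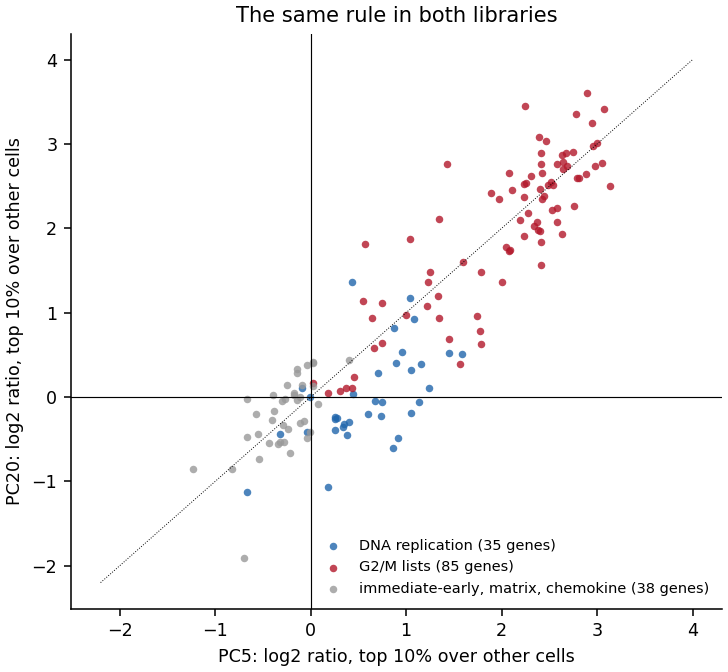
Log2 ratio of CPM, top 10% of cells by score over the other cells, in PC20 against PC5, for genes compared in both libraries (points) and a dotted line of equality. The 85 G2/M genes lie along the line, whereas most of the 35 replication genes lie below it, such as *Mcm6* at 0.18 in PC5 and -1.07 in PC20.

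The lower genes were shared less. Of the 47 lower genes of PC5 34 did not reach 5 CPM in PC20, and of the 13 that did 3 (23.1%) were lower there too, which is 11.5% of the 26 genes lower in PC20 and compared in PC5. *Trf*, *Il33* and *Dcn* stood at 1.38, 0.298 and 0.185 CPM in the other PC20 cells, so that no like comparison could be made. *Igfbp3* was at 21.0 CPM against 40.8 CPM in PC20 (-0.96), *Fos* at 19.4 CPM against 35.0 CPM (-0.85) and *Ccl2* at 2.51 CPM against 9.43 CPM. *Aldh1a2* had a ratio of -0.25 in PC20 (14.8 CPM against 17.7 CPM) beside -1.30 in PC5. *Angpt2*, under 5 CPM in PC20, stood there at 4.25 CPM in the top 10% and 2.64 CPM in the other cells, opposite in direction to PC5. With 1 library each, none of these differences between the cultures was tested.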

How the data were processed

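The deposited values are UMI counts per gene and cell barcode, which the authors made with Cell Ranger from 10x 3′ droplet libraries of PC5 and PC20 mapped to mm10. The submitters' processing notes give version 5.0 and the matrix headers 5.0.1. Barcodes were called as cells and no normalization was applied. A barcode was kept if it had over 1000 genes and if mitochondrial genes gave less than 20% of its UMIs, which left out 679 of 10629 in PC5. Totals after this filter were 223054273 UMIs (PC5) and 191122251 UMIs (PC20). Score ties were broken by file order.

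UMIs were summed over the cells of a group and scaled to CPM without a pseudocount, and genes with at least 5 CPM over all kept cells of a library were compared. Log2 ratios have exact conditional binomial and levels exact Poisson intervals at 95%. Cells of 1 library are not replicates, so no p-value was computed. The genes named are the 9 of the score, the 20 highest and 15 lowest ratios among other genes with at least 20 CPM, without pseudogenes and unnamed gene models, and list members with the highest or lowest ratio or those a sentence on a role needs. *Atf3*, *Ccl5* and some marker genes and genes of the PC20 comparison were named after their values were seen. The members, lists and rules were chosen with earlier results of these data known.

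Promoters came from RefSeq (GRCm38.p6), 250 bases before to 50 from the start, and 27025 genes of the table had one. Gene positions are those of GENCODE M21. Alternatives were other shares and scores, each score gene left out, other cell filters, thinned cells, other scalings, minimum levels and folds, and other cells without *Mki67* or *Top2a* UMIs. The computation was tested on simulated data. Python 3.11.15, NumPy 2.4.6, SciPy 1.17.1 and pandas 2.3.3 were used.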

Additional observations from a re-analysis of the deposited data

How the results depend on the processing

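Of 24 alternative settings, 21 left the count of genes at least 2-fold higher in the PC5 members between 207 and 358, against 248, and 18 left the count of lower genes between 39 and 69, against 47. Against other cells without *Mki67* or *Top2a* UMIs 393 genes were higher and 104 lower, at a minimum of 20 CPM 81 and 20, and at a fold of 1.5 593 and 228. The lower genes numbered 75 in thinned cells, 167 at a minimum of 1 CPM, where sampling noise is largest, and 72 with ratios centred on the median gene. The G2/M count of 73 stayed between 68 and 77 in 22 of 23 settings and was 26 at 20 CPM, where fewer genes were compared. The DNA replication count of 9 was 14 for the top 20% of cells, 26 against other cells without *Mki67* or *Top2a* UMIs, 3 at 20 CPM and 5 with centred ratios. In PC20 the 295 higher genes became 530 against other cells without *Mki67* or *Top2a* UMIs, 161 at 20 CPM and 598 at a fold of 1.5, and ranged from 263 to 382 in the other 21 settings. None of the 44 genes named by the fixed rule changed sign in any of 21 settings, apart from *Mki67* and *Top2a*, which have no ratio against other cells without their UMIs. The median of the G1 cyclin and E2F list moved from -0.05 to 0.10 against other cells without *Mki67* or *Top2a* UMIs. The alternatives for PC20 and the members with at least 10 UMIs of the score genes were added after seeing the data. Where no reason is given, the cause was not tested.

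Counts of low genes are limited by depth, and 1 library per passage leaves the spread between cultures unknown. No paired analysis was possible because each passage has 1 library and no result comes from a test.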

Other observations

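Histone genes of the clusters were also high in the PC5 members. Of 67 listed, 12 reached 5 CPM, of which 7 were at least 2-fold higher and 0 lower, with a median log2 ratio of 1.21. Over all genes compared 2.71% were higher. *Hist1h2ap* stood at 106 CPM in members and 45.8 CPM in other cells, and *Hist1h1b*, a linker histone, at 33.4 CPM and 10.6 CPM, a ratio of 1.65. *Hist1h2bc* went the other way, at 58.8 CPM and 101 CPM (-0.79). In PC20 5 of 18 were higher, against 3.27% of all genes compared there, with a median of 0.55. Most histone mRNAs of S phase end without a poly(A) tail, from which the kit primes, and near-identical copies can share reads, so these values are uncertain.

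Genes of p53 targets and glycolysis lay near the typical gene of the members. Of 15 p53 targets and 15 glycolysis genes 0 were at least 2-fold higher, and 0 and 1 were lower, with medians of -0.01 and 0.11. Over all genes compared 2.71% were higher and 0.513% lower. The 1 lower gene of these lists was *Aldoc*, an aldolase, at 5.23 CPM in members and 10.6 CPM in other cells (-1.02), which in PC20 stood at 30.4 CPM and 104 CPM (-1.78). Of 81 ribosomal protein genes 78 had a ratio below 0, with a median of -0.13 and 0 past 2-fold.

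*Atf3*, a stress-responsive factor on the immediate-early list, did not reach 5 CPM over all cells and was not compared. It held 226 UMIs in the members, or 8.21 CPM against 1.78 CPM in the other cells, although 2.71% of members and 3.00% of other cells held a UMI, and 208 of the 226 UMIs came from the 497 members with the highest scores. In PC20 its ratio was -0.92. *Ccl5*, also below the minimum in PC5, held 114 UMIs in the upper and 39 in the lower part of the members.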
